A study of Mus musculus with 10 samples.

Results

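The genes described are the subunits of integrins and laminins, chosen by name from GENCODE vM21: every gene with a symbol Itga followed by a number or letters, Itgb1 to Itgb8, and Lama, Lamb or Lamc followed by a number from 1 to 5. The rule found 37 of the 40620 genes in the deposited table: 18 integrin alpha subunits, 8 integrin beta subunits, 5 laminin alpha chains, 3 laminin beta chains and 3 laminin gamma chains. RNA was sequenced from MC3T3-E1 subclone 4, a pre-osteoblast line of mouse calvarial origin that is 1 clone, at 5 stages of culture with 2 replicates each, 10 libraries in all. Subconfluent and confluent cells had growth medium (αMEM with 10% iFBS). Cells at 24 h, 14 d and 21 d had been in differentiation medium, to which β-glycerophosphate at 10 mM and ascorbic acid at 50 µg/ml had been added. The labels name penicillin-streptomycin for differentiation medium only, while the study's methods name it, with L-glutamine, for maintenance medium as well. No culture was kept to 24 h, 14 d or 21 d without that medium, so time, cell density and medium cannot be told apart. The labels do not say whether replicates A and B are separate cultures, and p-values measure only the spread between these libraries.

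The sum of counts over genes was 44736156 in the smallest library and 162939333 in the largest. Levels are given in RPKM, the authors' read counts scaled for gene length and library depth, which allow genes of different length to be compared. Differences are log2 fold changes of counts with a standard error (SE), fitted over the 10 libraries in edgeR, and a gene is said to have risen or fallen where edgeR's quasi-likelihood test gave an adjusted p under 0.05 and the fold change exceeded 2. The 24 h libraries stand apart: over 16133 genes, log2 ratios between the 2 replicates varied with an SD of 0.69 at 24 h, where the other stages had 0.29 to 0.33. Changes of members that passed in a comparison with 24 h are therefore given also without each of these libraries. The subconfluent, confluent and 24 h libraries carry one pair of index sequences, and the 14 d and 21 d libraries another. Comparisons of 14 d with 24 h and of 21 d with subconfluent cells therefore cross from one pair to the other, and stage and index pair cannot be told apart in them.

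Integrins are receptors made of an alpha and a beta subunit that span the cell membrane and tie the matrix outside to the actin or keratin filaments inside. Laminins are trimers of an alpha, a beta and a gamma chain that assemble into basement membranes and are bound by several integrins. In bone, osteoblasts hold on to collagen, fibronectin and bone sialoprotein through integrins while they lay down matrix.

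The label of osteoblast cells was checked on 7 marker genes, all of which passed the filter on low counts. Means of 6 of them (Runx2, Sp7, Alpl, Col1a1, Bglap and Ibsp) were above 1 RPKM at every stage, and the remaining one, Dmp1, lay between 0.593 and 1.26 RPKM up to 24 h and between 5.53 and 29.0 RPKM at 14 d and 21 d. From subconfluent cells to 21 d, 5 of the 7 rose and 0 fell in edgeR's quasi-likelihood test, where 16.3% of all genes rose and 11.3% fell. From 14 d to 21 d 1 rose (Dmp1) and 2 fell (Alpl and Col1a1), against 1.52% and 2.45% of all genes. That rise of Dmp1 was lost without 14 d replicate B (log2 fold change 1.82), and the fall of Col1a1 (−1.004) was kept by 4 of 22 alternatives and lost without any one of the libraries other than those of 24 h, at −1.09 to −0.92. Summed over the list, the level was 5722 and 5502 RPKM in subconfluent cells, 6563 and 6446 RPKM in confluent cells, 4888 and 7667 RPKM at 24 h, 15855 and 14568 RPKM at 14 d, and 9073 and 8514 RPKM at 21 d, most of it Col1a1.

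Of the 37 members, 16 had a stage mean above 1 RPKM at every stage, 5 at some stages and 16 at none. The first set holds 9 integrin alpha subunits (Itga1, Itga2b, Itga3, Itga5, Itga8, Itga10, Itga11, Itgam and Itgav), 3 integrin beta subunits (Itgb1, Itgb3 and Itgb5), and 4 laminin chains (Lama4, Lamb1, Lamb2 and Lamc1). The second set holds Itga6, Itga9, Itgad, Itgb2 and Itgb4. The third set had 0.936 RPKM, of Itgb8, as its highest sample. The filter on low counts kept 32 members. The other 5 (Itga4, Itgal, Itgax, Itgb6 and Lamc3) had at most 13 counts and at most 0.0429 RPKM in any library and were not tested.

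Between successive stages few of the 32 tested members changed, and more did between the ends of the series. From subconfluent to confluent cells 1 member rose (Itga10) and 2 fell (Itga6 and Lamb3), where 1.0% of the 20808 genes tested rose and 0.423% fell (1.43% in either direction). From confluent cells to 24 h 1 rose (Itga10) and 1 fell (Itga6), against 1.76% and 0.365% of all genes (2.13% in either direction). From 24 h to 14 d 6 rose (Itga10, Itgb2, Itgb3, Itgb4, Itgb8 and Lamb3) and 1 fell (Itga9), against 4.47% and 1.51% (5.98%). From 14 d to 21 d 5 rose (Itgad, Itgb2, Lama1, Lama4 and Lamb1) and 0 fell, against 1.52% and 2.45% (3.97%). From subconfluent cells to 21 d 10 rose (Itga8, Itga10, Itgad, Itgb2, Itgb3, Itgb4, Itgb8, Lama1, Lama2 and Lama4) and 5 fell (Itga1, Itga6, Itga9, Itga11 and Itgav), against 16.3% and 11.3% (27.6%).

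At any fold change, adjusted p was under 0.05 for 3 of the 32 from subconfluent to confluent cells (3.28% of all genes), 2 from there to 24 h (5.15%), 10 from 24 h to 14 d (17.3%), 6 from 14 d to 21 d (9.72%) and 20 from subconfluent cells to 21 d (50.7%). Between any of the 5 stages 23 of the 32 differed, where 48.9% of all genes did. The median log2 fold change of the tested members was 0.04, −0.07, 0.37, 0.16 and 0.72 in these comparisons in the order given, and that of all genes was 0.00, 0.00, 0.01, −0.03 and 0.04. A member that passed the filter only through the stage where it is high was bound to differ. Of the members counted above, Itgb2, with at most 4 counts in a library up to 24 h, is of this kind. Lama1, with at most 10 counts in a library outside 21 d, is another. No test of the members against other genes was made. The comparison of 21 d with subconfluent cells shares libraries with those of confluent with subconfluent cells and of 21 d with 14 d.

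The count of members that rose or fell from subconfluent to confluent cells was 1 without subconfluent replicate A and 1 without subconfluent replicate B. From confluence to 24 h it was 3 without 24 h replicate A and 4 without 24 h replicate B, and from 24 h to 14 d it was 7 without 24 h replicate A and 9 without 24 h replicate B. Without 21 d replicate A the count from 14 d to 21 d was 3. The shares of all genes given above are from the fit over all 10 libraries, and none is given for fits with a library left out. Whether all genes moved alike in those fits was not tested. Scaling by library size alone moved the median change over all genes (log2) by −0.15 from subconfluent cells to 21 d and by −0.13 from confluent cells to 24 h. Upper-quartile scaling moved it by 0.13 from subconfluent cells to 21 d.

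Collagen is bound by the alpha subunits Itga1, Itga2, Itga10 and Itga11, each of which pairs with Itgb1. Their share of one another turned over in the course of the culture. Itga10, known for cartilage and for cells of the mesenchymal lineage, had 3.17 and 2.40 RPKM in subconfluent cells, 9.98 and 10.5 RPKM in confluent cells, 46.0 and 58.5 RPKM at 24 h, 100.2 and 99.1 RPKM at 14 d, and 119 and 114 RPKM at 21 d. Each stage lay wholly above the one before it. The log2 fold changes in edgeR's quasi-likelihood test were 1.85 (SE 0.15, adjusted p = 0.0017) to confluence, 2.44 (SE 0.15, adjusted p = 5.6e-04) from there to 24 h, 1.06 (SE 0.14, adjusted p = 0.0042) from 24 h to 14 d, and 5.50 (SE 0.17, adjusted p = 2.5e-06) from subconfluent cells to 21 d. The change from confluence to 24 h was 2.56 without 24 h replicate A and 2.33 without 24 h replicate B.

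The step of Itga10 from 24 h to 14 d was close to the 2-fold limit. It was 1.14 without 24 h replicate B, and the call was lost in 8 of 21 alternatives, among them without 24 h replicate A (0.94) and without subconfluent replicate A or B (0.999 in each). With only the 2 groups compared, the change from confluence to 24 h had an adjusted p of 0.092 and that from 24 h to 14 d of 0.10 (edgeR; alternatives from 1.5e-60 to 0.092 and from 7.9e-12 to 0.10). Of the exon bases of Itga10, 33.5% are shared with Gm42957, a transcript on the same strand that is not in the count table. How reads in the shared exons were assigned is not given in the sources used here, so the part of the shared transcript in the Itga10 counts was not tested.

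Itga11, a receptor for fibrillar collagen in fibroblasts and osteoblasts, had 50.5 and 50.4 RPKM in subconfluent cells, 36.1 and 29.8 RPKM in confluent cells, 14.7 and 27.6 RPKM at 24 h, 25.7 and 25.4 RPKM at 14 d, and 22.0 and 19.4 RPKM at 21 d. All libraries from confluence on lay below both subconfluent ones. Itga11 fell by 1.17 on the log2 scale from subconfluent cells to 21 d (SE 0.24, adjusted p = 0.0052, edgeR's quasi-likelihood test). Itga1, which also binds basement membrane collagen, had 4.16 and 4.10 RPKM in subconfluent cells, 4.60 and 4.36 RPKM in confluent cells, 2.00 and 4.30 RPKM at 24 h, 1.43 and 1.46 RPKM at 14 d, and 1.48 and 1.86 RPKM at 21 d.

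The 14 d and 21 d libraries of Itga1 lay below all others, and the 24 h libraries were split between the higher and the lower levels. Itga1 fell by 1.19 from subconfluent cells to 21 d (SE 0.29, adjusted p = 0.012, edgeR's quasi-likelihood test). Without 21 d replicate A that change was −1.04 and did not pass (edgeR's adjusted p = 0.077, alternatives from 1.0e-04 to 0.077). The log2 fold change of Itga1 from 24 h to 14 d was −0.98 and did not pass (adjusted p = 0.058, edgeR's quasi-likelihood test), while without 24 h replicate A it was −1.40 and passed. From confluence to 24 h it was −0.44, and without 24 h replicate B it was −1.002 and passed. Itga2, the collagen receptor of platelets and epithelia, had 0.0197 to 0.127 RPKM in the 10 libraries; its change from 24 h to 14 d passed without 24 h replicate B, at a log2 fold change of 2.33.

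Added up, the RPKM of these 4 collagen-binding subunits was 57.9 and 57.0 in subconfluent cells, 50.7 and 44.7 in confluent cells, 62.7 and 90.5 at 24 h, 127 and 126 at 14 d, and 143 and 136 at 21 d. Itga10 made up 5.47% and 4.22% of that sum in subconfluent cells, 19.7% and 23.4% in confluent cells, 73.3% and 64.7% at 24 h, 78.6% and 78.6% at 14 d, and 83.5% and 84.2% at 21 d. Itga11 went from 87.2% and 88.5% in subconfluent cells to 15.4% and 14.3% at 21 d. Within each library the ratio of Itga10 to Itga11 in RPKM was 0.0627 and 0.0477 in subconfluent cells, 0.277 and 0.351 in confluent cells, 3.12 and 2.12 at 24 h, 3.90 and 3.90 at 14 d, and 5.42 and 5.88 at 21 d. Among all 18 alpha subunits Itga10 held 2.07% and 1.61% of the summed RPKM in subconfluent cells and 55.2% and 55.2% at 21 d. The grouping of alpha subunits by ligand here and below is textbook knowledge applied after the values were seen.

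**Figure D1:**
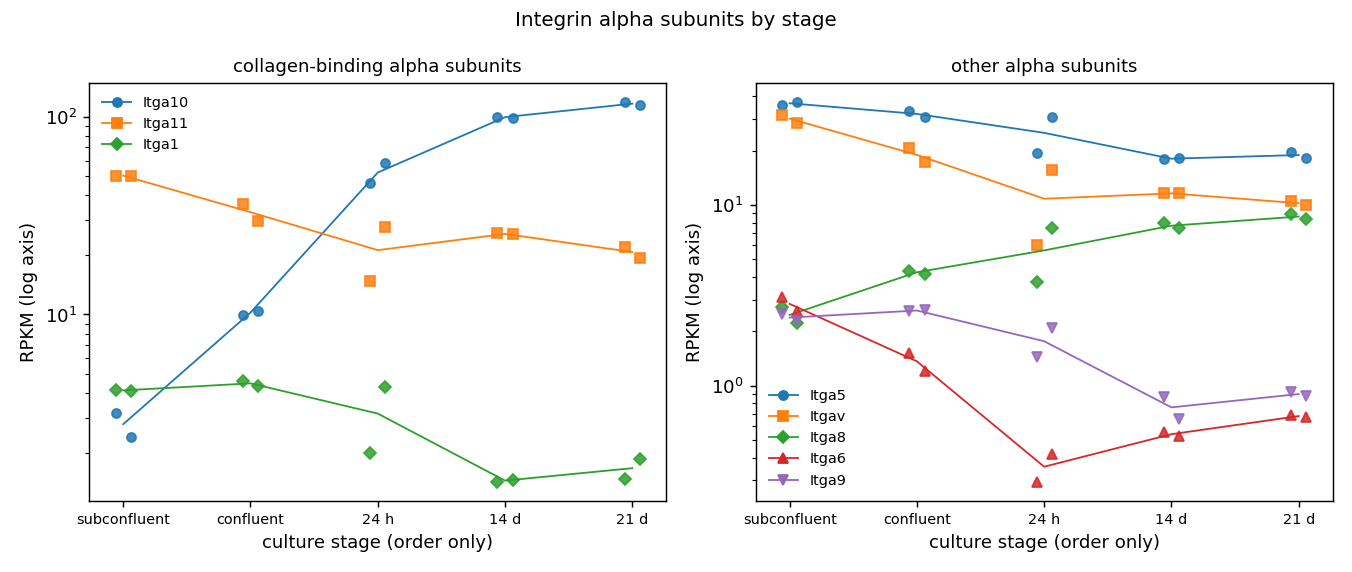
RPKM (log axis) of integrin alpha subunits at the 5 culture stages, with collagen-binding subunits on the left and other subunits on the right. Points are libraries and lines join stage means of 2 replicates. Itga10 passes Itga11 between confluence and 24 h, and Itga8 is higher, and Itgav and Itga6 lower, at 21 d than in subconfluent cells.

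Ligands with the arginine-glycine-aspartate motif, such as fibronectin, vitronectin and osteopontin, are bound by Itga5, Itga8, Itgav and Itga2b. Itgav, the partner of several beta subunits, had 31.5 and 28.6 RPKM in subconfluent cells, 20.5 and 17.3 RPKM in confluent cells, 6.04 and 15.6 RPKM at 24 h, 11.6 and 11.6 RPKM at 14 d, and 10.5 and 9.95 RPKM at 21 d. Every library from 24 h on lay below every earlier one, with 24 h replicate A the lowest. Itgav fell by 1.44 from subconfluent cells to 21 d (SE 0.35, adjusted p = 0.011, edgeR's quasi-likelihood test). Without 21 d replicate A edgeR's adjusted p was 0.057 and without 21 d replicate B 0.066, in a range over alternatives of 1.7e-05 to 0.066. From confluence to 24 h the log2 fold change was −0.74 and did not pass (adjusted p = 0.25, edgeR's quasi-likelihood test), and without 24 h replicate B it was −1.49 and passed.

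Itga8, the nephronectin receptor of kidney and other mesenchyme, went the opposite way. Its level was 2.72 and 2.22 RPKM in subconfluent cells, 4.33 and 4.16 RPKM in confluent cells, 3.74 and 7.48 RPKM at 24 h, 7.93 and 7.43 RPKM at 14 d, and 8.92 and 8.34 RPKM at 21 d. Both subconfluent libraries lay below all others. Itga8 rose by a log2 fold change of 1.92 from subconfluent cells to 21 d (SE 0.27, adjusted p = 7.8e-04, edgeR's quasi-likelihood test). Between 24 h and 14 d it was 0.60 and did not pass, and without 24 h replicate B it was 1.07 and passed. Npnt, the gene of its ligand nephronectin, had 273 and 261 RPKM in subconfluent cells and 583 and 576 RPKM in confluent cells. Npnt then had 450 and 805 RPKM at 24 h, 419 and 385 RPKM at 14 d, and 219 and 211 RPKM at 21 d. Its rise to confluence (log2 fold change 1.09, SE 0.21, adjusted p = 0.042, edgeR's quasi-likelihood test) was kept by 10 of 22 alternatives and lost without any one of the libraries other than those of 24 h, at values of 1.04 to 1.13.

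Itga5, the fibronectin receptor subunit, had a higher mean than Itgav, Itga8 and Itga2b at every stage, with 35.8 and 37.2 RPKM in subconfluent cells, 33.1 and 30.6 RPKM in confluent cells, 19.3 and 30.8 RPKM at 24 h, 17.9 and 18.1 RPKM at 14 d, and 19.6 and 18.1 RPKM at 21 d. Its log2 fold change from subconfluent cells to 21 d was −0.83 (SE 0.17, adjusted p = 0.0051, edgeR's quasi-likelihood test), below the 2-fold limit. Itga2b, the platelet subunit that pairs with Itgb3, had 1.83 to 3.18 RPKM in the 10 libraries and a log2 fold change of 0.68 (SE 0.23, adjusted p = 0.038, edgeR's quasi-likelihood test) over the same interval. The 5 platelet and megakaryocyte markers summed to 0.134 to 0.308 RPKM in each library. Of the 2 tested, Gp1ba rose from subconfluent cells to 21 d, a call that 8 of 21 alternatives kept and that was lost without any one of the libraries other than those of 24 h, at values of 1.08 to 1.40. Ppbp, with 0.117 and 0.150 RPKM in subconfluent cells and 0 and 0.0348 RPKM at 21 d, did not pass. Of the summed RPKM of the 4 subunits, Itga8 held 3.78% and 3.18% in subconfluent cells and 21.5% and 21.1% at 21 d, while Itgav held 43.7% and 40.9% and later 25.3% and 25.2%.

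Among the alpha subunits that bind laminin, Itga3 led. Itga3 had 12.0 and 11.8 RPKM in subconfluent cells, 14.9 and 12.8 RPKM in confluent cells, 11.6 and 18.8 RPKM at 24 h, 18.1 and 18.01 RPKM at 14 d, and 20.1 and 19.9 RPKM at 21 d. Its log2 fold change from subconfluent cells to 21 d was 0.87 (SE 0.18, adjusted p = 0.0054, edgeR's quasi-likelihood test), below the 2-fold limit. Itga7, the muscle laminin receptor, had 0.175 to 0.390 RPKM in the 10 libraries and passed in no comparison.

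Itga6, the subunit that pairs with Itgb1 or Itgb4, had 3.09 and 2.59 RPKM in subconfluent cells, 1.52 and 1.21 RPKM in confluent cells, 0.296 and 0.419 RPKM at 24 h, 0.556 and 0.526 RPKM at 14 d, and 0.689 and 0.673 RPKM at 21 d. The stages did not overlap: the level was lowest at 24 h and the later stages lay between 24 h and confluence. Itga6 fell by 1.08 from subconfluent to confluent cells (SE 0.18, adjusted p = 0.024), by 1.85 from there to 24 h (SE 0.18, adjusted p = 0.0031), and fell by 1.94 from subconfluent cells to 21 d (SE 0.18, adjusted p = 1.2e-04), all in edgeR's quasi-likelihood test. From confluence to 24 h the change was −1.66 without 24 h replicate A and −2.04 without 24 h replicate B, and it passed in both. Afterwards, to 14 d, the log2 fold change of Itga6 was 0.73 (SE 0.18, adjusted p = 0.032, edgeR's quasi-likelihood test), below the 2-fold limit, with 0.54 without 24 h replicate A and 0.90 without 24 h replicate B. Of the summed RPKM of Itga3, Itga6 and Itga7, Itga6 held 20.1% and 17.7% in subconfluent cells and 3.28% and 3.23% at 21 d.

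The first fall of Itga6 was the less secure one: 12 of 22 alternatives lost it. Among them was the fit with the replicate letter as a replicate block, where Itga6 fell by 1.08 (edgeR's adjusted p = 0.059). Its log2 fold change was −0.94 without subconfluent replicate A, −1.22 without subconfluent replicate B, −1.25 without confluent replicate A and −0.93 without confluent replicate B. It was −1.08 without 14 d replicate A, without 14 d replicate B, without 21 d replicate A and without 21 d replicate B, with adjusted p-values in edgeR of 0.067, 0.066, 0.065 and 0.066 (alternatives from 2.6e-06 to 0.19). The fall from confluence to 24 h was lost with only the 2 groups compared, where edgeR's adjusted p was 0.21 (alternatives from 8.6e-17 to 0.21).

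Itga9, a receptor for tenascin and osteopontin, had 2.49 and 2.28 RPKM in subconfluent cells, 2.60 and 2.62 RPKM in confluent cells, 1.44 and 2.09 RPKM at 24 h, 0.869 and 0.653 RPKM at 14 d, and 0.921 and 0.881 RPKM at 21 d. The 14 d and 21 d libraries lay below all others. Itga9 fell by 1.08 from 24 h to 14 d (SE 0.18, adjusted p = 0.0085) and by 1.29 from subconfluent cells to 21 d (SE 0.18, adjusted p = 7.9e-04), both in edgeR's quasi-likelihood test. The change from 24 h to 14 d was −1.28 without 24 h replicate A, and it was lost without 24 h replicate B (−0.89) and without 14 d replicate B (−0.91). It was also lost with only the 2 groups compared (−1.11, edgeR's adjusted p = 0.14) and with limma-trend on log2(RPKM + 1) (−0.64).

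Itgb1, the partner of most alpha subunits, was the most abundant member in every library. It had 277 and 273 RPKM in subconfluent cells, 219 and 202 RPKM in confluent cells, 170.2 and 221 RPKM at 24 h, 223 and 241 RPKM at 14 d, and 228 and 218 RPKM at 21 d. The subconfluent libraries were the highest pair, and no comparison between 2 stages passed, while edgeR's quasi-likelihood test over the 5 stages gave an adjusted p of 0.047. Its share of the summed RPKM of the 8 beta subunits was 73.5% (SD 0.882, n = 2) in subconfluent cells, 67.2% (SD 0.365) in confluent cells, 64.1% (SD 4.25) at 24 h, 66.3% (SD 1.05) at 14 d, and 56.7% (SD 1.08) at 21 d. Set against Itga10, Itgb1 had 87.3 and 113 times its RPKM in subconfluent cells and 1.91 and 1.91 times at 21 d.

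Itgb5, the vitronectin receptor subunit that pairs with Itgav, took up most of the remainder. It had 93.7 and 98.7 RPKM in subconfluent cells, 105 and 94.2 RPKM in confluent cells, 106 and 105 RPKM at 24 h, 109 and 111 RPKM at 14 d, and 159.9 and 162 RPKM at 21 d. The 21 d libraries stood above all others, which lay close together. The log2 fold change of Itgb5 was 0.48 from 14 d to 21 d (SE 0.094, adjusted p = 0.020) and 0.86 from subconfluent cells to 21 d (SE 0.094, adjusted p = 2.5e-04) in edgeR's quasi-likelihood test, both under the 2-fold limit. The ratio of Itgb5 to Itgav in RPKM was 2.98 and 3.46 in subconfluent cells and 5.09 and 5.45 in confluent cells. It was 17.6 and 6.75 at 24 h, 9.38 and 9.55 at 14 d, and 15.2 and 16.3 at 21 d, so 24 h replicate A was the highest library.

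Itgb3, the subunit of the vitronectin receptor best known from osteoclasts and platelets, had 2.22 and 2.13 RPKM in subconfluent cells, 2.74 and 2.61 RPKM in confluent cells, 1.92 and 2.51 RPKM at 24 h, 6.32 and 5.88 RPKM at 14 d, and 4.97 and 5.26 RPKM at 21 d. The 14 d and 21 d libraries lay above all others. Itgb3 rose by a log2 fold change of 1.59 from 24 h to 14 d (SE 0.11, adjusted p = 2.7e-04) and of 1.35 from subconfluent cells to 21 d (SE 0.11, adjusted p = 6.7e-05) in edgeR's quasi-likelihood test. The step from 24 h to 14 d was 1.45 without 24 h replicate A and 1.70 without 24 h replicate B. Of 6 osteoclast markers, only Ctsk was above 0.1 RPKM in any library, Calcr and Dcstamp had 0 counts throughout, and the sum without Ctsk was 0.0104 to 0.0744 RPKM. Ctsk itself, which is also known from osteoblast-lineage cells, had 76.9 and 77.2 RPKM in subconfluent cells and 179.7 and 166 RPKM at 21 d and rose, and the whole list summed to 76.9, 77.2, 98.1, 100.0, 139, 120.1, 132, 127, 179.7 and 166 RPKM in the libraries in stage order.

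Itgb8, the subunit that with Itgav binds latent TGF-β, stayed under 1 RPKM. It had 0.156 and 0.128 RPKM in subconfluent cells, 0.0852 and 0.0939 RPKM in confluent cells, 0.0554 and 0.0974 RPKM at 24 h, 0.612 and 0.582 RPKM at 14 d, and 0.936 and 0.717 RPKM at 21 d. The stages up to 24 h did not reach the levels of 14 d and 21 d. Itgb8 rose by a log2 fold change of 3.10 from 24 h to 14 d (SE 0.27, adjusted p = 7.0e-04) and of 2.64 from subconfluent cells to 21 d (SE 0.27, adjusted p = 1.7e-04) in edgeR's quasi-likelihood test. Without 24 h replicate A the first value was 2.79, and without 24 h replicate B it was 3.45. Tgfb1, the gene of the growth factor, rose by 1.499 from subconfluent cells to 21 d. Itgb6 had at most 7 counts in any library, and Itgb7, a lymphocyte subunit, had 0.0371 to 0.183 RPKM and passed in no comparison.

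Itgb4, the subunit that with Itga6 forms the laminin receptor of hemidesmosomes and ties to keratin filaments, had 0.196 and 0.208 RPKM in subconfluent cells, 0.154 and 0.321 RPKM in confluent cells, 0.312 and 0.355 RPKM at 24 h, 1.10 and 0.804 RPKM at 14 d, and 1.39 and 1.29 RPKM at 21 d. The 14 d and 21 d libraries lay above all earlier ones. Itgb4 rose by a log2 fold change of 1.64 from 24 h to 14 d (SE 0.32, adjusted p = 0.015) and of 2.84 from subconfluent cells to 21 d (SE 0.34, adjusted p = 3.6e-04) in edgeR's quasi-likelihood test. The step from 24 h to 14 d was 1.60 without 24 h replicate A and 1.64 without 24 h replicate B. It was lost in edgeR without 14 d replicate A (log2 fold change 1.41, adjusted p = 0.094), without 14 d replicate B (1.83, adjusted p = 0.056) and with only the 2 groups compared (adjusted p = 0.080), in a range over alternatives of 2.5e-05 to 0.094. A transcript on the opposite strand, B230344G16Rik, shares 7.66% of the exon bases of Itgb4 and had 10.3 counts on average, where Itgb4 had 266. In RPKM Itgb4 was below Itga6 in all subconfluent and confluent libraries, at ratios of 0.0636 to 0.264. The 24 h libraries were split, at 1.06 in replicate A and 0.846 in replicate B. At 14 d and 21 d Itgb4 was above Itga6, at ratios of 1.53 to 2.01.

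Of 7 genes for the other parts of a hemidesmosome or its keratins, 5 were tested, and 2 rose and 0 fell from subconfluent cells to 21 d (16.3% and 11.3% of all genes). Krt14, a keratin of basal epithelial cells, had 2.34 and 2.07 RPKM in subconfluent cells, 0.572 and 1.06 RPKM in confluent cells, 1.86 and 1.26 RPKM at 24 h, 8.61 and 5.68 RPKM at 14 d, and 8.94 and 8.96 RPKM at 21 d. Krt14 rose by a log2 fold change of 2.31 between 24 h and 14 d (SE 0.35, adjusted p = 0.0061, edgeR's quasi-likelihood test). Krt5, the partner keratin of Krt14, rose by 3.43 from subconfluent cells to 21 d (SE 0.82, adjusted p = 0.010, edgeR's quasi-likelihood test), a call lost without subconfluent replicate A, without subconfluent replicate B and without 21 d replicate B, where its log2 fold changes were 3.72, 3.19 and 2.17. Krt5 replicates differed widely late on, with 2.45 and 0.597 RPKM at 14 d and 0.537 and 2.01 RPKM at 21 d. Col17a1, the collagen of hemidesmosomes, had 0.393 to 0.771 RPKM, and the linkers Plec and Dst had 14.0 to 25.1 RPKM and 2.36 to 6.30 RPKM.

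The 8 genes of the epithelial marker list summed to 2.62 and 2.26 RPKM in subconfluent cells, 0.819 and 1.30 RPKM in confluent cells, 2.27 and 1.69 RPKM at 24 h, 11.3 and 6.37 RPKM at 14 d, and 9.76 and 11.2 RPKM at 21 d. Krt14 was the most abundant of them, 3 of the 8 were tested and all 3 (Krt14, Krt5 and Cdh1) rose from subconfluent cells to 21 d, where 16.3% of all genes did, Epcam had 0 counts in every library, and Cldn4, Cldn7, Esrp1 and Grhl2 stayed under 0.1 RPKM. Besides the call of Krt5, that of Cdh1 (log2 fold change 1.28) was not kept by most alternatives: 10 of 21 kept it. It was lost without subconfluent replicate A (1.80), subconfluent replicate B (0.90), confluent replicate A or B (1.27 in each), 21 d replicate A (1.06) and 21 d replicate B (1.47). Between 24 h and 14 d, where Itgb4 rose, 2 of the 3 tested epithelial markers rose (Cdh1 and Krt14) and 0 fell. Cdh1 was low in this step, with 0.0416 and 0.0379 RPKM (13 and 11 counts) at 24 h. At 14 d it had 0.157 and 0.0825 RPKM (52 and 10 counts). Of all genes, 4.47% rose and 1.51% fell in that step. In such bulk RNA, more cells of a type and more RNA per cell cannot be told apart. The part of epithelial cells in the Itgb4 level was not tested beyond these values.

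The integrins best known from leukocytes are Itgb2 with Itgal, Itgam, Itgax or Itgad, and Itgae with Itgb7. Itgb2 had 0.00959 and 0 RPKM in subconfluent cells, 0.00969 and 0.0122 RPKM in confluent cells, 0.00775 and 0 RPKM at 24 h, 0.209 and 0.160 RPKM at 14 d, and 1.43 and 1.61 RPKM at 21 d. Its counts were 3 and 0, 1 and 4, 2 and 0, 57 and 16, and 152 and 391 in the same order. The libraries of 14 d lay above all earlier ones and those of 21 d above those of 14 d. Itgb2 passed the filter on low counts only through 14 d and 21 d, so its differences from earlier stages were bound to appear.

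Itgb2 rose from 24 h to 14 d (adjusted p = 0.0054), from 14 d to 21 d (log2 fold change 2.96, SE 0.58, adjusted p = 0.020) and from subconfluent cells to 21 d (adjusted p = 1.8e-04) in edgeR's quasi-likelihood test. Between 24 h and 14 d it went from 2 to 73 counts, a ratio of 52.8 after scaling (exact 95% interval 14.1 to 444), and from subconfluent cells to 21 d from 3 to 543 counts, a ratio of 229 (78 to 1114). These intervals cover counting error only. The step from 24 h to 14 d passed without 24 h replicate A (0 counts left at 24 h, at least 17.6-fold with 3 counts taken for them) and without 24 h replicate B (2 counts, ratio 26.4, interval 7.05 to 222), and it was lost with only the 2 groups compared (edgeR's adjusted p = 0.11, alternatives from 8.1e-06 to 0.11). The step from 14 d to 21 d was lost in edgeR without 14 d replicate A (adjusted p = 0.13), without 14 d replicate B (0.17), without 21 d replicate A (0.11) and without 21 d replicate B (0.13), in a range over alternatives of 1.4e-08 to 0.17.

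Itgad, an alpha subunit that pairs with Itgb2, had 0.0345 and 0.0674 RPKM in subconfluent cells, 0.117 and 0.0619 RPKM in confluent cells, 0.0689 and 0.0873 RPKM at 24 h, 0.200 and 0.0887 RPKM at 14 d, and 1.79 and 1.74 RPKM at 21 d. The 21 d libraries stood above the other 8. Itgad rose by a log2 fold change of 3.50 from 14 d to 21 d (SE 0.48, adjusted p = 0.0045) and of 5.31 from subconfluent cells to 21 d (SE 0.54, adjusted p = 1.7e-04) in edgeR's quasi-likelihood test. Itgad overlaps other genes: 70 of its exon bases (1.55%) are shared with Cox6a2 on the opposite strand, 8.60% with 4931431B13Rik on the opposite strand and 7.32% with Gm17831 on the same strand. Cox6a2, a subunit of cytochrome c oxidase in heart and skeletal muscle, had 2.27 and 0.434 RPKM at 14 d and 34.7 and 30.5 RPKM at 21 d, and rose by 4.42 between them (SE 0.64, adjusted p = 0.0056, edgeR's quasi-likelihood test). Whether reads were counted by strand is not given, and the part of Cox6a2 reads in the Itgad counts was not tested. Of the muscle markers, Acta1 went from 42.8 and 43.6 RPKM in subconfluent cells to 14.3 and 14.4 RPKM at 21 d, Myod1 had 0 counts throughout, and of the 2 tested Acta1 fell over that interval and Des, with 0.252 and 0.193 RPKM and later 0.334 and 0.353 RPKM, did not pass. The list of 5, most of it Acta1, summed to 43.1, 43.8, 42.1, 37.6, 21.8, 32.1, 19.0, 15.5, 14.7 and 14.8 RPKM in stage order.

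Itgam, the macrophage subunit that pairs with Itgb2, was present from the start, with 5.00 and 5.28 RPKM in subconfluent cells, 5.35 and 6.62 RPKM in confluent cells, 9.86 and 5.46 RPKM at 24 h, 7.88 and 7.24 RPKM at 14 d, and 7.86 and 8.22 RPKM at 21 d. Both 21 d libraries lay above both subconfluent ones, successive stages from confluence on overlapped, and no comparison passed (subconfluent cells to 21 d: log2 fold change 0.76, adjusted p = 0.051, edgeR's quasi-likelihood test). Of its exon bases 68.7% are shared with Gm49368 on the same strand, which is not in the count table, so the Itgam level is uncertain. Itgal and Itgax had at most 13 counts and 4 counts in any library, and Itgae had 0.00666 to 0.0776 RPKM and passed in no comparison.

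The 10 macrophage and leukocyte markers were read beside these subunits. Ptprc, the pan-leukocyte marker, had 0 counts in all 10 libraries, and Adgre1, Spi1 and Cd52 stayed under 0.1 RPKM. Csf1r and Lyz2 were above 1 RPKM at every stage, with 1.83 to 3.19 RPKM and 9.81 to 16.1 RPKM. Tyrobp had 179 RPKM in confluent replicate B, 214 RPKM in 14 d replicate B, 256 RPKM in 21 d replicate A and at most 0.842 RPKM in the other 7 libraries, so it did not follow the stages. Summed over the list, the level was 13.6 and 15.1 RPKM in subconfluent cells, 16.8 and 199 RPKM in confluent cells, 22.7 and 18.7 RPKM at 24 h, 18.4 and 233 RPKM at 14 d, and 275 and 19.6 RPKM at 21 d. Without Tyrobp it was 13.6 and 15.1 RPKM in subconfluent cells, 16.8 and 19.5 RPKM in confluent cells, 21.9 and 18.7 RPKM at 24 h, 17.9 and 19.5 RPKM at 14 d, and 18.3 and 19.3 RPKM at 21 d. From subconfluent cells to 21 d, 2 of the 7 tested markers rose (Fcer1g and Spi1) and 0 fell, where 16.3% and 11.3% of all genes did. Between 24 h and 14 d, where Itgb2 rose, 0 of the 7 rose and 1 fell (4.47% and 1.51% of all genes). This was Fcer1g, from 2.56 and 2.20 RPKM to 0.657 and 0.915 RPKM, a call lost without 14 d replicate A (−1.24) and without 14 d replicate B (−1.75). Between 14 d and 21 d, where Itgb2 and Itgad rose, 0 of the 7 rose and 0 fell (1.52% and 2.45% of all genes). In the rise from subconfluent cells to 21 d Fcer1g no longer passed without subconfluent replicate A (1.21). Spi1, with 1 count in subconfluent cells and 25 at 21 d (ratio 31.6, exact 95% interval 5.18 to 1298), no longer passed without subconfluent replicate A, subconfluent replicate B or 21 d replicate B. The part of leukocytes in the levels of Itgb2 and Itgad was not tested.

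**Figure D2:**
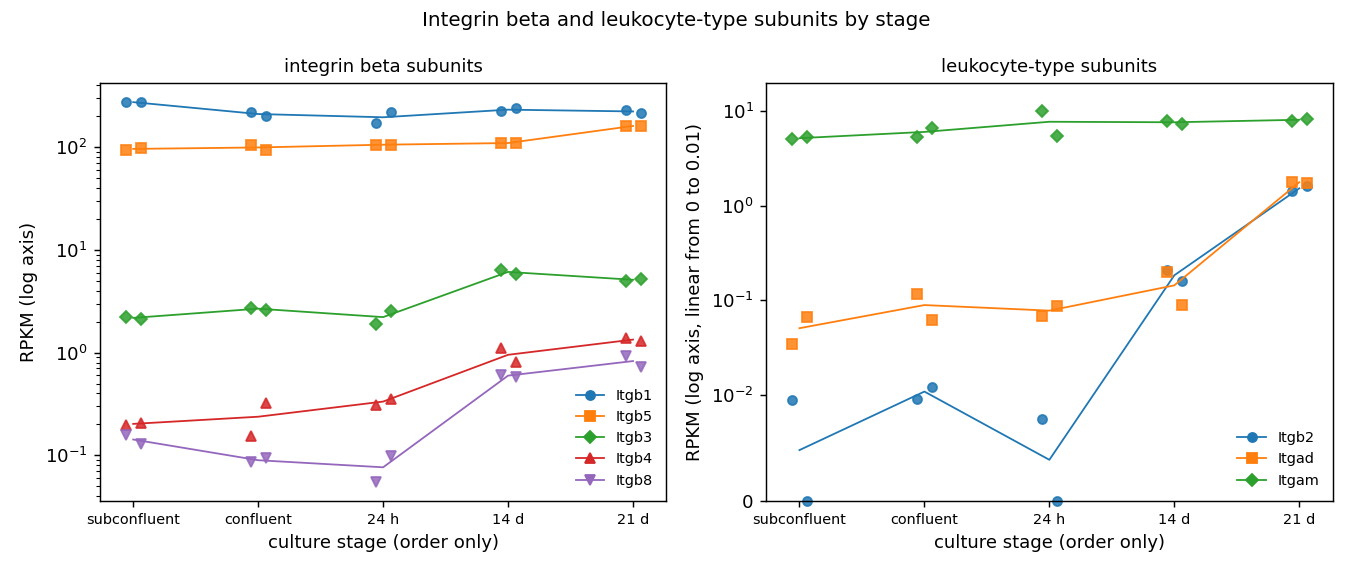
RPKM of integrin beta subunits (left, log axis) and of leukocyte-type subunits (right, log axis that is linear from 0 to 0.01) at the 5 culture stages. Points are libraries and lines join stage means of 2 replicates. Itgb3, Itgb4 and Itgb8 are higher from 14 d on, Itgb2 climbs at 14 d and 21 d, Itgad at 21 d, and Itgam lies between 5.00 and 9.86 RPKM throughout.

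The laminin chains present above 1 RPKM were Lama4, Lamb1, Lamb2 and Lamc1, which together can form the trimers laminin α4β1γ1 and α4β2γ1. Lama4 made up 99.5% to 99.9% of the summed RPKM of the 5 alpha chains, and Lamc1 made up 99.2% to 99.7% of that of the 3 gamma chains. Lama4, the alpha chain of mesenchymal and vessel walls, had 20.6 and 20.3 RPKM in subconfluent cells, 23.7 and 21.0 RPKM in confluent cells, 14.0 and 21.0 RPKM at 24 h, 19.7 and 19.5 RPKM at 14 d, and 47.6 and 47.7 RPKM at 21 d. The 21 d libraries stood above the other 8. Lama4 rose by a log2 fold change of 1.21 from 14 d to 21 d (SE 0.15, adjusted p = 0.0033) and of 1.34 from subconfluent cells to 21 d (SE 0.16, adjusted p = 3.3e-04) in edgeR's quasi-likelihood test, and each alternative run kept both calls. The 6 endothelial markers all stayed under 0.1 RPKM, with a list sum of 0.0122 to 0.107 RPKM in any library; from subconfluent cells to 21 d that sum went from 0.0122 and 0.0332 to 0.107 and 0.0747 RPKM, and of the 2 tested Tek rose from 2 to 24 counts (ratio 15.2, exact 95% interval 3.77 to 133), a call lost without any one of the 4 libraries compared.

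Lamb1 and Lamb2 are alternative beta chains, and their balance shifted back and forth. Lamb1 had 23.7 and 24.1 RPKM in subconfluent cells, 27.8 and 24.1 RPKM in confluent cells, 15.3 and 21.1 RPKM at 24 h, 11.7 and 11.6 RPKM at 14 d, and 28.5 and 27.3 RPKM at 21 d. It was lowest at 14 d, and 21 d lay above 14 d without overlap. Lamb1 rose by a log2 fold change of 1.18 from 14 d to 21 d (SE 0.13, adjusted p = 0.0018) in edgeR's quasi-likelihood test, a call that each alternative run kept. Between 24 h and 14 d its log2 fold change was −0.51 (SE 0.13, adjusted p = 0.037, edgeR's quasi-likelihood test), below the 2-fold limit, with −0.68 without 24 h replicate A and −0.37 without 24 h replicate B.

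Lamb2, the beta chain of synapses and kidney filters, had 38.4 and 40.0 RPKM in subconfluent cells, 42.1 and 37.1 RPKM in confluent cells, 38.6 and 50.2 RPKM at 24 h, 57.5 and 55.3 RPKM at 14 d, and 65.1 and 62.9 RPKM at 21 d. Its log2 fold change was 0.48 from 24 h to 14 d (SE 0.12, adjusted p = 0.032) and 0.82 from subconfluent cells to 21 d (SE 0.12, adjusted p = 8.9e-04) in edgeR's quasi-likelihood test, both under the 2-fold limit. Without 24 h replicate A the first was 0.34, and without 24 h replicate B it was 0.58. The ratio of Lamb2 to Lamb1 in RPKM was 1.62 and 1.66 in subconfluent cells, 1.52 and 1.54 in confluent cells, 2.51 and 2.38 at 24 h, 4.90 and 4.76 at 14 d, and 2.28 and 2.30 at 21 d. The highest ratio was thus at 14 d, when Lamb1 was lowest. Lamc1, the common gamma chain, had 28.1 and 28.0 RPKM in subconfluent cells, 31.9 and 27.3 RPKM in confluent cells, 13.8 and 28.7 RPKM at 24 h, 25.1 and 24.9 RPKM at 14 d, and 26.7 and 24.5 RPKM at 21 d. Only 24 h replicate A stood apart, and no comparison passed.

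Lamb3 is the beta chain of laminin 332, the epithelial form that binds the hemidesmosome receptor, and Lama3 is its alpha chain. Lamb3 had 0.378 and 0.431 RPKM in subconfluent cells, 0.0339 and 0.0683 RPKM in confluent cells, 0.0569 and 0.0583 RPKM at 24 h, 0.266 and 0.196 RPKM at 14 d, and 0.250 and 0.337 RPKM at 21 d. Confluent and 24 h libraries lay below all others. Lamb3 fell by 2.93 from subconfluent to confluent cells (SE 0.38, adjusted p = 0.0092) and rose by 2.13 from 24 h to 14 d (SE 0.37, adjusted p = 0.0098) in edgeR's quasi-likelihood test.

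The fall of Lamb3 was lost in edgeR without subconfluent replicate A (adjusted p = 0.064) and without subconfluent replicate B (0.066), in a range over alternatives of 2.2e-07 to 0.066. The rise was 2.16 without 24 h replicate A and 2.05 without 24 h replicate B; it was lost without 14 d replicate A, where the log2 fold change was 1.90 (edgeR's adjusted p = 0.067, alternatives from 9.0e-05 to 0.11), and with only the 2 groups compared (adjusted p = 0.11). Hsd11b1 and G0s2 lie on the opposite strand inside the span of Lamb3 and share no exon base with it. Hsd11b1, the enzyme that activates glucocorticoid, rose by 3.25 from 24 h to 14 d. G0s2, an inhibitor of lipolysis, rose by 2.44, a call lost without 14 d replicate A (2.39) and without 14 d replicate B (2.48). Lama3 had 0 to 0.0327 RPKM in the 10 libraries and passed in no comparison.

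Lama1, the alpha chain of early embryonic basement membranes, had 0.0103 and 0.0205 RPKM in subconfluent cells, 0.00622 and 0.00783 RPKM in confluent cells, 0.00871 and 0.00402 RPKM at 24 h, 0.00470 and 0 RPKM at 14 d, and 0.133 and 0.104 RPKM at 21 d. The 21 d libraries, with 44 and 79 counts, stood above the other 8, which had at most 10. Lama1 passed the filter on low counts only through 21 d, so its differences between 21 d and other stages were bound to appear. Lama1 rose from 14 d to 21 d (adjusted p = 0.0083), from 4 to 123 counts, a ratio of 31.5 (exact 95% interval 12.0 to 117), and by a log2 fold change of 3.14 from subconfluent cells to 21 d (SE 0.70, adjusted p = 0.0078) in edgeR's quasi-likelihood test. The rise from 14 d was lost in edgeR without 21 d replicate A (adjusted p = 0.055, alternatives from 4.0e-05 to 0.055), and that from subconfluent cells without subconfluent replicate A (log2 fold change 2.62, adjusted p = 0.078, alternatives from 6.0e-04 to 0.078).

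Lama2, the alpha chain of muscle basement membrane, had 0.00926 and 0.00946 RPKM in subconfluent cells, 0.0129 and 0.0122 RPKM in confluent cells, 0.0224 and 0.0362 RPKM at 24 h, 0.0391 and 0.0289 RPKM at 14 d, and 0.0482 and 0.0385 RPKM at 21 d. Its 24 h, 14 d and 21 d libraries lay above all earlier ones. Lama2 rose by a log2 fold change of 2.31 from subconfluent cells to 21 d (SE 0.37, adjusted p = 0.0017, edgeR's quasi-likelihood test), on 17 and 65 counts. From confluence to 24 h it was 1.30 and did not pass, and without 24 h replicate A it was 1.56 and passed. Lama5 had 0.00105 to 0.0381 RPKM, with at most 22 counts in a library. From subconfluent cells to 21 d its log2 fold change was 1.70 and did not pass (adjusted p = 0.091, edgeR's quasi-likelihood test), and it passed without 24 h replicate A (1.69), without 24 h replicate B (1.68), without the 24 h samples (1.68) and with only the 2 groups compared (1.66). The change of Lama5 from 24 h to 14 d passed without 24 h replicate B, from 1 to 21 counts, a ratio of 15.2 (exact 95% interval 2.44 to 628). On a log2(RPKM + 1) scale limma-trend lost the calls of most members under 1 RPKM, since the added 1 outweighs such levels.

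**Figure D3:**
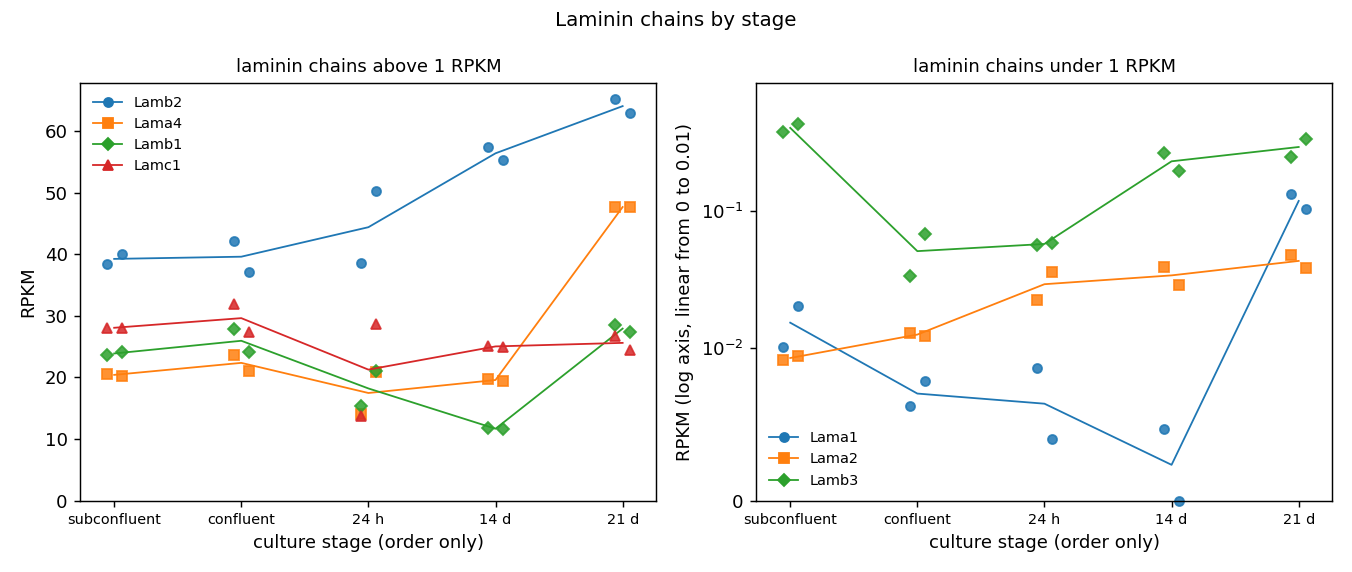
RPKM of laminin chains above 1 RPKM (left, linear axis) and of 3 chains under 1 RPKM (right, log axis that is linear from 0 to 0.01) at the 5 culture stages. Points are libraries and lines join stage means of 2 replicates. Lama4 and Lamb1 climb from 14 d to 21 d, Lamc1 is near its first level at the end, and Lamb3 is lowest in confluent cells and at 24 h.

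Genes that work with integrins and laminins were read from 4 lists of 80 genes, of which 73 were tested. From subconfluent cells to 21 d, 20 of the 73 rose and 11 fell, where 16.3% and 11.3% of all genes did. From subconfluent to confluent cells 4 rose and 1 fell (1.0% and 0.423% of all genes), and from confluence to 24 h 4 rose and 1 fell (1.76% and 0.365%). From there to 14 d 14 rose and 4 fell (4.47% and 1.51%), and from 14 d to 21 d 2 rose and 1 fell (1.52% and 2.45%). These shares are from the fit over all 10 libraries, and none is given for the fits with a library left out that follow. Whether the counts of partner genes moved more than those of all genes was therefore not tested. Without 24 h replicate A the counts were 5 and 1 from confluence to 24 h and 13 and 5 from 24 h to 14 d, and without 24 h replicate B they were 7 and 7 and then 22 and 4. From subconfluent to confluent cells 5 rose and 2 fell without 24 h replicate A, and also without 24 h replicate B.

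Focal adhesion adaptors link integrins to actin. Of 33 listed, 31 were tested, and 5 rose and 6 fell from subconfluent cells to 21 d (16.3% and 11.3% of all genes), with a median log2 fold change of −0.47, where all genes had 0.04. Tns1, a tensin that binds the tails of beta subunits, had 1.67 and 1.45 RPKM in subconfluent cells and 47.7 and 47.8 RPKM at 21 d, and rose by a log2 fold change of 5.05 (SE 0.29, adjusted p = 1.5e-05, edgeR's quasi-likelihood test). Lims2, a partner of integrin-linked kinase, and Tns2, another tensin, rose by 3.38 and 1.85. Zyx, a protein of adhesions under tension, had 264 and 286 RPKM in subconfluent cells and 80.2 and 73.6 RPKM at 21 d, and fell by 1.72 (SE 0.11, adjusted p = 2.1e-05, edgeR's quasi-likelihood test). Ptk2b, a kinase related to focal adhesion kinase, fell by 1.98 and Parvb, a parvin, fell by 1.58.

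Of 20 basement membrane partners and laminin receptors other than integrins, 17 were tested, and 6 rose and 3 fell from subconfluent cells to 21 d (16.3% and 11.3% of all genes), with a median log2 fold change of 0.52. Smoc2, a calcium-binding matrix protein, rose by 5.59 (SE 0.18, adjusted p = 2.5e-06, edgeR's quasi-likelihood test), from 0.224 and 0.172 RPKM to 8.78 and 9.31 RPKM. Its relative Smoc1 rose by 2.24, and Agrn, a proteoglycan that binds laminin, by 1.34. Nid1 and Nid2, which join laminin to collagen IV networks, both fell over that interval: Nid1 fell by 1.87 (SE 0.33, adjusted p = 0.0025) and Nid2 fell by 1.52 (SE 0.13, adjusted p = 6.8e-05) in edgeR's quasi-likelihood test.

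Of 20 integrin ligands of bone matrix, all were tested, and 7 rose and 2 fell from subconfluent cells to 21 d (16.3% and 11.3% of all genes), with a median log2 fold change of 0.20. Ibsp, bone sialoprotein, had 20.0 and 11.8 RPKM in subconfluent cells, 196 and 205 RPKM in confluent cells, 959 and 1124 RPKM at 24 h, 4081 and 4374 RPKM at 14 d, and 2570.0 and 2509 RPKM at 21 d, and rose by 7.43 (SE 0.29, adjusted p = 3.8e-06, edgeR's quasi-likelihood test) from the first to the last stage. Vtn, vitronectin, had 0 counts in subconfluent cells and 250 at 21 d, at least 105-fold higher when 3 counts are taken over the subconfluent group. Dmp1, a phosphoprotein of osteocytes and mineralizing matrix, rose by 4.32. Tgfbi, a collagen-linked adhesion protein, had 33.2 and 32.6 RPKM in subconfluent cells and 0.483 and 0.742 RPKM at 21 d, and fell by 5.60 (SE 0.23, adjusted p = 4.4e-06, edgeR's quasi-likelihood test). Postn, periostin, had 376 and 358 RPKM in confluent cells, 775 and 1074 RPKM at 24 h, and 321 and 325 RPKM at 14 d. It rose by 1.42 from confluence to 24 h and fell by 1.38 from there to 14 d, and its levels at 14 d and 21 d were above the 303 and 284 RPKM of subconfluent cells. Vcam1, a ligand of leukocyte integrins, fell by 1.04 from subconfluent cells to 21 d, a call lost without 21 d replicate B (−0.97) and under upper-quartile scaling (−0.91). The changes of Postn, Krt14, Hsd11b1 and G0s2 from 24 h to 14 d passed without 24 h replicate A and also without 24 h replicate B. Icam1, a ligand of Itgb2 integrins singled out after its values were seen, had 0.0164 and 0.0453 RPKM in subconfluent cells and 0.827 and 0.794 RPKM at 21 d and rose over that interval.

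The members lie on 14 chromosomes, and some are close neighbours. Itgax and Itgad are 3718 bases apart and Itgam and Itgax 11055 bases apart on chromosome 7, all on the plus strand. Of these 3, Itgad rose late, Itgam passed in no comparison and Itgax had at most 4 counts. Itga2 and Itga1 are 20995 bases apart on chromosome 13, with Itga1 above 1 RPKM at every stage and Itga2 below it at every stage.

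Promoter windows from RefSeq (GRCm38.p6, 250 bases before to 50 after each annotated start) matched 23 of the 37 members by symbol, with 26 windows. The windows of Itga10 and Itga11, which bind collagen, and of Itga8 and Itgav, which bind arginine-glycine-aspartate ligands, are printed 5′ to 3′. These pairs were chosen because their subunits moved apart: Itga10 and Itga8 rose, while Itga11 and Itgav fell. Capitals mark the dinucleotide CG, which reads the same on both strands. Itga10 (chr3:96645334-96645633, plus strand) holds 6 CG, Itga8 (chr2:12301895-12302194, minus strand) 23, Itga11 (chr9:62677605-62677904, plus strand) 16 and Itgav (chr2:83724147-83724446, plus strand) 24. Of all 32851 windows in the table, 56.4% hold at least as many CG as Itga10, 21.5% as Itga8, 33.0% as Itga11 and 20.0% as Itgav. The median was 7 over all windows and 11 over the windows of members, and the count did not part the risen from the fallen subunits.
Itga10: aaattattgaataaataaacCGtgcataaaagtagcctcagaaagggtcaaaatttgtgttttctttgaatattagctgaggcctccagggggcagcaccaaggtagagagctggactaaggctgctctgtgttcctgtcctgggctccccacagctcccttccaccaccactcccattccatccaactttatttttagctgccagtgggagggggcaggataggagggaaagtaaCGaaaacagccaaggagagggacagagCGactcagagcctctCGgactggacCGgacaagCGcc
Itga8: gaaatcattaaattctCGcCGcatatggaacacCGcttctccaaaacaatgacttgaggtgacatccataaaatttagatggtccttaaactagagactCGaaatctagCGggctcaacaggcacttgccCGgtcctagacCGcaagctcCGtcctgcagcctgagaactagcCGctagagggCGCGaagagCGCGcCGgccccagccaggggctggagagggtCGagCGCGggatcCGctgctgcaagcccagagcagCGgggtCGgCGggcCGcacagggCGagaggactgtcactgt
Itga11: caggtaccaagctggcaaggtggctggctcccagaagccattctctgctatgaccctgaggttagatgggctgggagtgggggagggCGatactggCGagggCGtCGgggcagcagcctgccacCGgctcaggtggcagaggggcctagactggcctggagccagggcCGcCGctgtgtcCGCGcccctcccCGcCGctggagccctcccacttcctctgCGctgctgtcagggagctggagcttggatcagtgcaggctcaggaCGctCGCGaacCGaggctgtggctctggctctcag
Itgav: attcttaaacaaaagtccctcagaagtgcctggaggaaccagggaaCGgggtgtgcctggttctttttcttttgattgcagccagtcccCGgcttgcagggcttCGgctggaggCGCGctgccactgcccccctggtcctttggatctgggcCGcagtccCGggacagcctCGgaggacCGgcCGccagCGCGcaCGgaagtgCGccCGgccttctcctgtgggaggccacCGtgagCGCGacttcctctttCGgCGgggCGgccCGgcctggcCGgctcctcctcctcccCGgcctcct

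The letters TGTGGT, a core that RUNX factors bind, were searched on both strands. They occur in 16.8% of all 32851 windows and in 3 of the 26 windows of members (Itga3, Itga4 and Itgax), and in none of the 4 printed. The GC box GGGCGG, on both strands, occurs in 35.7% of all windows and in 12 of the 26 windows of members, which belong to 11 genes, Itgav among them. A match is a description of the letters and not a site, and a window without one says only that these letters are not in it.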

How the data were processed

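Gene tables of 10 RNA-seq libraries were read, from MC3T3-E1 cells at 5 stages with 2 replicates each. The count values were deposited by the authors as whole reads per gene, without normalization. The authors derived the RPKM values from these counts, gene length and a number of reads per library, and the counts were 1.44 to 1.60 times that number. The submitters' processing notes name FastQC, TopHat2 2.0.9, R 3.0.1 and mouse genome build mm10. The counting tool, the annotation and the strand handling are not given in the sources used here. The RPKM table lacks 17 genes, and its last line is incomplete for 1 gene. For 14 d replicate A and 21 d replicate B, each read in 2 lanes, the merged column was taken, which differs from the sum of the lanes for 13526 and 13582 genes. Symbols and exons came from GENCODE vM21 on GRCm38, where 39547 of the 40620 identifiers had a symbol.

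Counts were fitted in edgeR 4.0.16 (R 4.3.3) with 1 model over 5 stages and 10 libraries, after TMM scaling and filterByExpr, which kept 20808 genes. Adjustment for multiple testing was by Benjamini and Hochberg over these genes. SE is the absolute log2 change over the square root of F. The spread is pooled over the stages, since 2 replicates give little within 1 stage. Where one stage of a printed change has 1 to 3 counts over its libraries, and for Lama1 at 14 d with 4, a count ratio with an exact binomial 95% interval is given, and where it has 0 a lower bound with 3 counts over the stage. RPKM shares and ratios have no test. The code was tested on simulated data.

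The members, the 4 partner lists and the marker lists (osteoblast, macrophage and leukocyte, osteoclast, platelet and megakaryocyte, epithelial, endothelial, muscle) were chosen with earlier results of these data known. Values are printed for each member that rose or fell, for Itgb4, for the most abundant member of each class and for partners in a dimer or trimer. From each partner list, values are printed for up to 3 of the strongest rises and 3 of the strongest falls among genes with a stage mean of at least 1 RPKM. Other genes named by value, such as Npnt, Icam1, Tgfb1, Fcer1g and overlapping genes, were picked after their values were seen.

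Alternatives were DESeq2 size factors, upper-quartile factors or library size alone in edgeR, DESeq2 1.42.0, no filter, at least 10 counts in every library, only the 2 groups compared, the replicate letter as a replicate block, limma-trend (limma 3.58.1) on log2(RPKM + 1) or log2(RPKM + 0.1), any fold change, RPKM limits of 0.5 and 2 or both replicates above 1, counts in place of RPKM for shares, and each library left out in turn. They were planned with the same earlier results known. Removal of the 24 h libraries and the sum of the lanes were chosen after seeing the data. Every per-sample column was used, the lanes only as that alternative.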

Additional observations from a re-analysis of the deposited data

How the results depend on the processing

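Over 255 pairs of a gene and a comparison, 5438 alternative values were computed: 5280 stayed on their side of the threshold, of which 113 changed sign with neither value past it, 124 fell back from it, 34 passed it newly and 0 that had passed changed sign. Of 72 pairs that had passed, 35 passed in each alternative run. For the alternative fits below, counts of members and partner genes come without the share of all genes in the same fit. Whether all genes moved alike in those fits was not tested.

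With limma-trend on log2(RPKM + 1), 1 member passed from subconfluent to confluent cells (3 in the report), 1 from confluence to 24 h (2), 1 from 24 h to 14 d (7) and 8 from subconfluent cells to 21 d (15). The added 1 is above the level of many members. Members above 1 RPKM lost calls as well. Among them were Itga1 and Itgb3 from subconfluent cells to 21 d (log2 fold changes −0.95 and 0.94) and Itga10 from 24 h to 14 d (0.93). With only the 2 groups compared, which leaves 4 libraries to estimate the spread, 0 members passed from confluence to 24 h in edgeR (lowest adjusted p 0.092, alternatives of that gene from 1.5e-60 to 0.092) and 2 from 24 h to 14 d. With at least 10 counts in every library, which removes members that start near 0, 3 passed from 14 d to 21 d (5). At any fold change, 51 partner genes passed from subconfluent cells to 21 d (31). In counts without length correction the share of Itgb1 was 76.8% in subconfluent cells, 70.9% in confluent cells, 69.3% at 14 d and 60.5% at 21 d. The cause of other shifts was not tested.

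With each library left out in turn, the members that passed numbered 1 to 3 from subconfluent to confluent cells, with 1 without subconfluent replicate A or B. They numbered 2 to 4 from confluence to 24 h (4 without 24 h replicate B), 5 to 9 from 24 h to 14 d, 3 to 5 from 14 d to 21 d (3 without 21 d replicate A) and 13 to 16 from subconfluent cells to 21 d. They numbered 17 to 27 for any of the 5 stages. Partner genes numbered 26 to 34, and members above 1 RPKM at every stage 16 in each run. The share of Itgb1 was 72.9% to 74.2%, 67.0% to 67.5%, 61.1% to 67.1%, 65.6% to 67.1% and 56.0% to 57.5% in stage order. A library left alone in its stage is assumed to vary like the other groups.

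With the replicate letter as a replicate block, the members that passed were 2, 2, 7, 5 and 15 in the order above, 20 for any of the 5 stages (23 in the report), and 30 partner genes (31). Itga6 was the member lost from subconfluent to confluent cells. No share of all genes is given for this fit, so whether all genes moved alike was not tested. Libraries with the same letter also share an index sequence among subconfluent, confluent and 24 h cells, and another between 14 d and 21 d, so letter and index cannot be told apart within these stages. Over 20808 genes, correlations between stages of the deviations of same-letter libraries ran from −0.33 to 0.17. Without the 24 h libraries, chosen after seeing the data, 3 members passed from subconfluent to confluent cells, 5 from 14 d to 21 d and 16 from subconfluent cells to 21 d. Depth limits genes with few counts: 5 members had at most 13 counts in any library and were not tested.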
